A study of Mus musculus with 9 samples.

Results

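The clustered histone genes are the 68 genes of the count tables, out of 22609 listed, whose symbol begins with Hist1h, Hist2h, Hist3h or Hist4h. Of these, 54 lie in the Hist1 cluster on chromosome 13, 10 in the Hist2 cluster on chromosome 3, 3 in the Hist3 cluster on chromosome 11, and 1 is the isolated Hist4h4 on chromosome 6. By protein they comprise 6 H1, 18 H2A, 19 H2B, 12 H3 and 13 H4 genes. RNA came from tumors that 4T1 cells, a line of mouse mammary carcinoma, formed after injection into the mammary fat pad (BALB/c hosts), with 3 libraries in each of 3 groups. The LFD group was fed a diet with 10% of calories from fat and received vehicle (hydroxy propyl cellulose). The HFD group was fed a diet with 60% of calories from fat and received the same vehicle, and the HFD + EC359 group was fed the 60% diet and received EC359, an inhibitor of the leukemia inhibitory factor receptor (LIFR), at 5 mg/kg on 5 days per week. All mice had been on their diet for 6 weeks before the cells were injected and stayed on it, and vehicle or EC359 began once tumors were established. Every tumor grew from the same cell line, so the tumor cells are 1 model in a host with its own stroma, and the labels give no age of the mice. They also do not say whether each library is a separate tumor, so the p-values below measure the spread between libraries, which may in part be technical.

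Clustered histone genes encode the core histones H2A, H2B, H3 and H4, which form the nucleosome around which DNA is wound, and the linker histone H1, which binds the DNA between nucleosomes. They are transcribed during S phase, when newly copied DNA has to be packed, and are therefore abundant in dividing cells such as tumor cells. Most of their mRNAs have no introns and end in a stem-loop in place of a poly(A) tail, which is bound by the stem-loop binding protein Slbp. H2A and H2B genes are often arranged head to head and share the stretch between their start sites. Several genes of each class encode the same or nearly the same protein from copies that differ little in sequence.

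The stem-loop was looked for first, since it shows which gene models carry the signal of this mRNA family. The pattern GGNNCT, then any base, TT and any base, then AGNNCC was searched on the transcript strand in the 100 bases after the stop codon in the mm9 sequence. They were found in 58 of the 65 members whose model held a stop codon, or 89.2%, and in 7 of 21747 other genes, or 0.0322%. By class, 6 of 6 H1, 17 of 18 H2A, 13 of 17 H2B, 10 of 11 H3 and 12 of 13 H4 genes had them. A missing match says only that these letters are not in this window. The examples below are an H2B gene of Hist1 with the largest rise, the most abundant H2B gene of Hist1 and the most abundant H1, H3 and H4 genes, with Hist1h4j as an H4 gene with other stem letters. The capitals mark the 16 bases of the stem-loop, and 5 bases on either side are in lower case.
Hist1h2bm: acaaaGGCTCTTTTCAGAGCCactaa
Hist1h2bl: tcaaaGGCTCTTTTAAGAGCCaccca
Hist1h1c: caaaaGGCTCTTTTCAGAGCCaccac
Hist1h3e: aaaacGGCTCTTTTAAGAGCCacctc
Hist1h4d: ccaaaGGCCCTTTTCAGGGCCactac
Hist1h4j: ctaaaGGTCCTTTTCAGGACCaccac

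All 12 H4 genes with a match had a stem opening with GGCCC or GGTCC, whereas the matches of the other classes opened with GGCTC. In mm9 these stretches lie at chr13:21814370-21814395 for Hist1h2bm (plus strand), chr13:21807582-21807607 for Hist1h2bl (minus strand), chr13:23831376-23831401 for Hist1h1c (plus strand), chr13:23653767-23653792 for Hist1h3e (minus strand), chr13:23673814-23673839 for Hist1h4d (plus strand) and chr13:21827301-21827326 for Hist1h4j (plus strand). In each they lie after the stop codon, in the part of the mRNA that is not translated. The gene models themselves were often shorter than the mRNA. Of the 68 models, 32 ended at the stop codon, so that reads from the untranslated end after it could not be assigned to these members. In 49 models the length was a multiple of 3, but some of these held bases after the stop codon, such as Hist1h2ac with 2058.

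The libraries held 5085268 to 6509005 counts in LFD, 7314525 to 7922667 in HFD and 8043470 to 9750959 in HFD + EC359. A count of 0 allows up to 3 counts, or 0.308 to 0.59 CPM, for counting error only. CPM are counts relative to the library total after scaling with TMM factors. The clustered histone genes took 0.726% of the counts in the LFD, 0.744% in the HFD and 0.681% in the HFD + EC359 libraries, as group means. LFD replicate 1 stood apart from the other LFD libraries, with a mean chi-square per gene of 3.10 and 2.54 against them, where the other library couples of a group had 1.36 to 1.57. Counts reached the level needed for a test in 63 members. The other 5 were Hist1h1t, Hist1h2aa and Hist1h2ba, which are known from the testis, with Hist3h2ba and Hist3h2bb-ps, and the highest count of any of them in a library was 10. Hist1h2aa had 0 counts in all 9 libraries. Among the tested members, levels per length ran from 1.49 CPM per kb for Hist2h2be to 1301 CPM per kb for Hist1h4d. Their median was highest in H4, at 523.9 CPM per kb, and lowest in H2B, at 76.8 CPM per kb.

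Similar copies limit what can be said of a single gene. The authors divided a read pair with more than 1 matching gene or place among them, so that counts can be fractions. Of the 68 members, 50 share at least 1 stretch of 150 bases, the length of a read, with another member. Between 26 and 42 members held a fraction in a library, and these carried 32.1% to 64.4% of the members' counts. LFD replicate 1 had the lowest value of both. Only 7 of the 63 tested members had whole counts in all 9 libraries. Hist1h2bq and Hist1h2br cover the same loci and had the same counts, as did Hist1h2ao and Hist1h2ap, so that each of these couples is 1 measurement. Hist2h2aa1 overlaps Hist2h2aa2, Hist1h4m overlaps Hist1h4n, and Hist1h2be shares 209 exonic bases with Hist1h1e, each on the same strand.

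To ask how the diet related to histone mRNA, the HFD libraries were compared with the LFD libraries. All 14 tested H2B genes of Hist1 were called higher. They are not 14 separate measurements, since Hist1h2bq and Hist1h2br had the same counts. All of them but Hist1h2bm share stretches of 150 bases with other members. Of 14 tested members of any class with no shared stretch, 1 (Hist1h2bm) rose and 7 fell. Of 49 tested members with a shared stretch, 26 rose and 8 fell. In the other classes the count of rises and falls depended on whether the trend of each library over GC content and gene length was left in or taken out as an offset of the fit. Without and with this offset, 1 and 6 H4 genes rose and 6 and 1 fell, 1 and 2 H1 genes rose and 3 and 2 fell, 7 and 11 H2A genes rose and 6 and 2 fell, and 4 and 9 H3 genes rose with 0 that fell. Of all tested genes, 26% rose and 25.8% fell without the offset, and 21.6% rose and 20.9% fell with it. The values that follow are without the offset unless it is named. Of the 63 tested members, 27 rose and 15 fell at an adjusted p under 0.05 (edgeR's quasi-likelihood test, Benjamini-Hochberg adjustment over 13366 genes), against 26% of all tested genes that rose and 25.8% that fell. At the threshold of the study's methods, which asks for a change of more than 2-fold at an adjusted p below 0.01, 15 members rose and 0 fell, against 3.02% and 2.68% of all genes. The 15 are 13 H2B genes of Hist1 with Hist1h2ac and Hist1h2ae, which are H2A genes. The median log2 fold change was 0.10 over the 63 members and 0.01 over all genes.

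**Figure D1:**
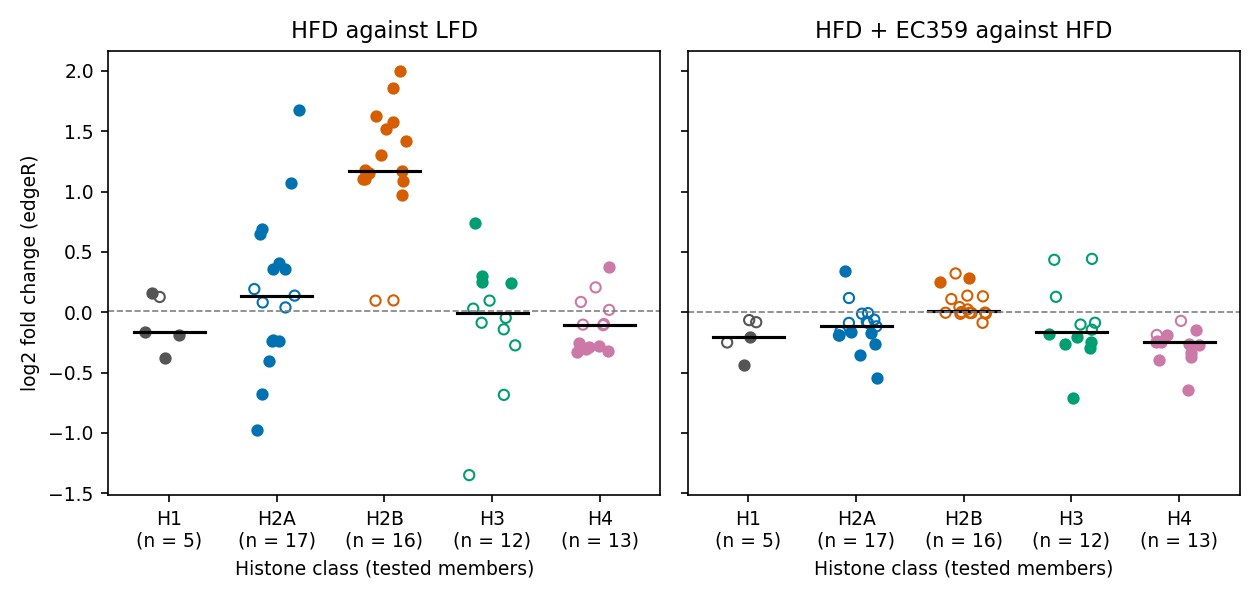
Log2 fold change from edgeR of each of the 63 tested members by histone class, with the diet comparison (HFD against LFD) on the left and the EC359 comparison (HFD + EC359 against HFD) on the right. Filled points passed an adjusted p of 0.05, open points did not, black bars are class medians and the dashed line is the median of all tested genes. The H2B genes sit apart on the left, with 14 of 16 between 0.97 and 1.999, and the H4 genes lie below the line on the right.

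H2B, the partner of H2A in the nucleosome, gave the largest difference. All 14 tested H2B genes of Hist1 were higher in the HFD group, with log2 fold changes of 0.97 (Hist1h2bc) to 1.999 (Hist1h2bm) and a median of 1.24, and with adjusted p-values of 2.50e-15 to 3.10e-07 (edgeR). In each of the 14, the lowest HFD library was above the highest LFD library, which was so for 28.5% of all tested genes. Hist1h2bm had 27, 97 and 71 counts in the LFD libraries, 324, 374 and 352 in the HFD libraries and 502, 459 and 550 in the HFD + EC359 libraries. These were 5.52, 15.2 and 12.5 CPM in LFD, 40.9, 49.0 and 48.0 CPM in HFD and 60.9, 51.8 and 54.99 CPM in HFD + EC359. The LFD values thus lay below all others, and the log2 fold change was 1.999 (SE 0.149, adjusted p = 6.89e-13, edgeR). Hist1h2bm is the H2B gene of Hist1 that can be assigned most firmly, since it shares no stretch of 150 bases with another member and its counts were whole in every library.

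Hist1h2be was at 12.3, 21.4 and 17.1 CPM in LFD, 59.4, 59.0 and 69.4 CPM in HFD and 79.1, 71.2 and 73.1 CPM in HFD + EC359. Its groups did not overlap, with a log2 fold change of 1.86 for HFD against LFD (SE 0.11, adjusted p = 2.50e-15, edgeR). Hist1h2bn was at 9.41, 13.8 and 9.52 CPM in LFD against 29.1, 34.8 and 39.0 CPM in HFD, and Hist1h2bp at 10.2, 12.1 and 14.1 CPM against 36.7, 35.2 and 37.8 CPM. Both had clear gaps between the groups, with log2 fold changes of 1.63 and 1.58. Hist1h2bl, the most abundant H2B gene of the cluster, was at 17.2, 39.4 and 41.4 CPM in LFD and 72.3, 77.7 and 77.7 CPM in HFD, a log2 fold change of 1.18 (SE 0.136, adjusted p = 9.78e-09, edgeR).

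Of the H2B genes outside Hist1, neither Hist2h2bb nor Hist2h2be passed the test, and Hist3h2ba and Hist3h2bb-ps were not tested. Hist2h2bb passed it with the offset (0.23, adjusted p = 1.05e-05, edgeR). Hist2h2bb was the most abundant H2B gene, at 237.1, 254.7 and 255.4 CPM in LFD, 262, 274.6 and 264.3 CPM in HFD and 277.8, 253.2 and 268.6 CPM in HFD + EC359. Its HFD libraries were above its LFD libraries by a small margin, with a log2 fold change of 0.10 (SE 0.0431, adjusted p = 0.0556, edgeR). Hist2h2be was low, at 3.17 to 3.68 CPM in LFD and 2.73 to 5.04 CPM in HFD, with a log2 fold change of 0.10 (SE 0.273). Summed over the genes, H2B of Hist1 made up 191.7, 331.7 and 326.2 CPM in the LFD libraries, 692.2, 726.5 and 740.3 CPM in the HFD libraries and 717, 740.5 and 791.7 CPM in the HFD + EC359 libraries. The sum does not depend on how reads were divided among the genes summed. It can still depend on reads shared with genes outside it, such as Hist1h1e, which shares 209 exonic bases with Hist1h2be. The share of genes with fractional counts was lower in the LFD libraries, and the part of this in the sum was not tested. The sum of the other H2B genes was 252.9 ± 10.1 CPM in LFD, 271.8 ± 5.89 CPM in HFD and 272.4 ± 12 CPM in HFD + EC359 (SD, n = 3).

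**Figure D2:**
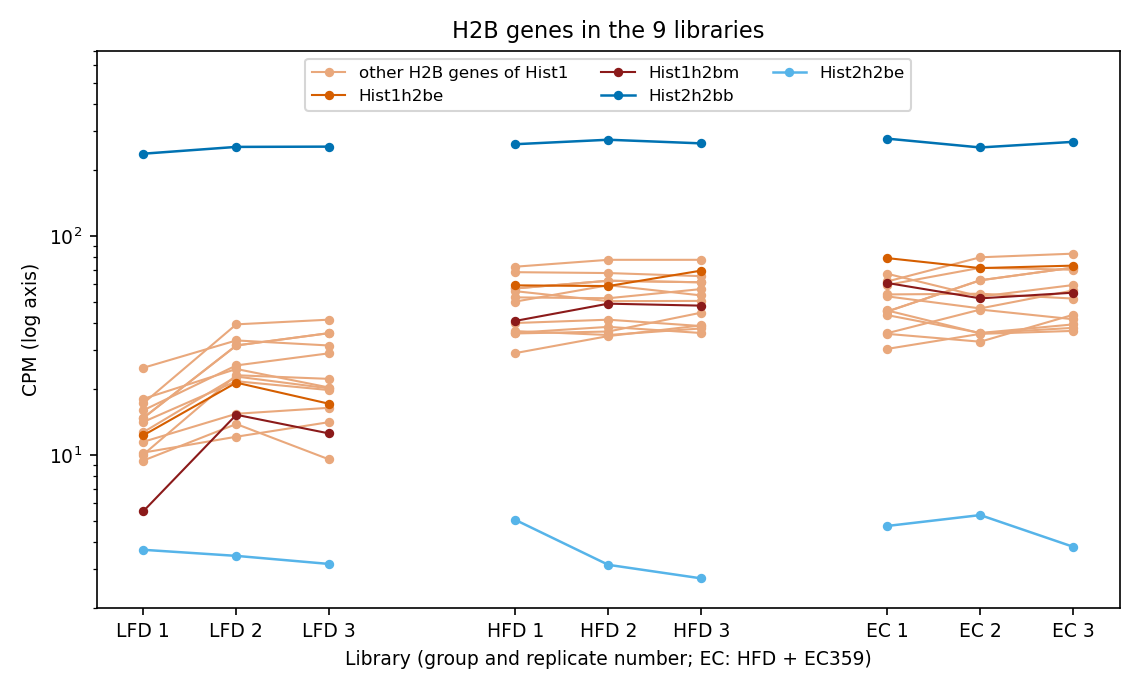
CPM (log axis) of the 16 tested H2B genes in each of the 9 libraries, with thin lines joining the values of a gene within a group; replicates have no order. The H2B genes of Hist1 lie lower in the LFD libraries, most of all in LFD replicate 1, and at similar levels in the HFD and HFD + EC359 libraries, while Hist2h2bb stays between 237.1 and 277.8 CPM.

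LFD replicate 1 was low for these genes as well. It was the library with the lowest CPM for all 14 tested H2B genes of Hist1, and their mean log2 CPM was 3.72 there against 4.50 and 4.44 in the other LFD libraries, 5.59 to 5.69 in HFD and 5.64 to 5.78 in HFD + EC359. Without this library all 14 were still called higher in HFD, with a median log2 fold change of 1.13. All 14 were also called with DESeq2, where the median was 1.25.

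When EC359 was given on the high-fat diet, the H2B genes of Hist1 stayed near their HFD level. Hist1h2bm (log2 fold change 0.28, SE 0.104, adjusted p = 0.041, edgeR) and Hist1h2be (0.25, SE 0.0788, adjusted p = 0.0165, edgeR) were called higher, in both cases with all HFD + EC359 libraries above all HFD libraries. The call of Hist1h2bm was lost when HFD replicate 1, 2 or 3 or HFD + EC359 replicate 1 or 3 was left out, and that of Hist1h2be without HFD replicates 1 and 2 and HFD + EC359 replicate 1. The other 12 lay between -0.09 (Hist1h2bp) and 0.14 (Hist1h2bg), with standard errors of 0.0714 to 0.125. Compared to the LFD group, all 14 were higher in the HFD + EC359 group, by 1.08 to 2.28 on the log2 scale. Of all 63 members, 22 were higher and 23 lower in that comparison, against 29.2% and 29.1% of all tested genes, and at the stricter threshold 16 and 1, against 3.66% and 1.43%. The 16 include these 14 H2B genes, and the 1 that was lower is Hist1h2an. The HFD libraries enter both of the first comparisons, so the values of the diet and of EC359 are not independent of each other.

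Promoters of H2B genes are known for the octamer ATTTGCAT, which is bound by the factor Oct-1 (Pou2f1), and for CCAAT boxes. Of the 68 members, 62 matched a RefSeq promoter (GRCm38.p6, which is another build than that of the counts), taken as 250 bases before to 50 after the start. On both strands, ATTTGCAT was in 7 of 16 H2B and 7 of 18 H2A promoters and in none of the 6 H1, 10 H3 and 12 H4 promoters, against 1.74% of all 32851 promoters. Of the 14 tested H2B genes of Hist1 that rose, 13 had a promoter entry and 5 of these the octamer. Hist2h2bb, which passed the test with the offset and not without it, has the octamer too. CCAAT was in every H1, H2A, H2B and H3 promoter and in 3 of 12 H4 promoters, against 37.4% of all promoters. TATAAA was in 50% of H2B and 66.7% of H4 promoters, against 13.6% of all. The 250 bases before the start are shown for the H2B gene that rose most, for the abundant Hist2h2bb and for the most abundant H4 gene. The capitals mark ATTTGCAT, CCAAT and TATAAA on either strand, and a match is a description of the letters only.
Hist1h2bm: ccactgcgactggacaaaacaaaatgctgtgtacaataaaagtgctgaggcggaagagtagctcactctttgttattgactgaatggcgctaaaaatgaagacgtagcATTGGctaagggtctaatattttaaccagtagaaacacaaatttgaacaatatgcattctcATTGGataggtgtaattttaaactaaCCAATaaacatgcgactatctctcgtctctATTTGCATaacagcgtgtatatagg
Hist2h2bb: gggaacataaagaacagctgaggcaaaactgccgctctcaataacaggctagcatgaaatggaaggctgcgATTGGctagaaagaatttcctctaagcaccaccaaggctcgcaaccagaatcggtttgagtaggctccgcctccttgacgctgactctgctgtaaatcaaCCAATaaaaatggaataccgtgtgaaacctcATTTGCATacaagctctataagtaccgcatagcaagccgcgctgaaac
Hist1h4d: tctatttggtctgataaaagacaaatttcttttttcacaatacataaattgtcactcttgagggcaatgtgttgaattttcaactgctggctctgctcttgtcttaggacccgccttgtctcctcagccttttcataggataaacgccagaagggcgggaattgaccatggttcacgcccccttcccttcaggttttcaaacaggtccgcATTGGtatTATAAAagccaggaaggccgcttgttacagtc

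In GRCm38.p6 these stretches are chr13:21721794-21722043 for Hist1h2bm, chr3:96269450-96269699 for Hist2h2bb and chr13:23581318-23581567 for Hist1h4d, all on the plus strand. Both H2B stretches hold the octamer near the start and CCAAT on each strand. The Hist1h4d stretch holds no octamer, 1 CCAAT on the minus strand and TATAAA.

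H2A genes, whose proteins pair with H2B, were called in both directions. Of 17 tested, 7 rose and 6 fell in HFD against LFD, beside 26% and 25.8% of all tested genes. DESeq2 called 3 and 5. With the offset for GC content and length 11 rose and 2 fell, beside 21.6% and 20.9% of all genes, with a median log2 fold change of 0.48. The sum of the class was 1381 ± 23.8 CPM in LFD, 1379 ± 40.6 CPM in HFD and 1240 ± 59.0 CPM in HFD + EC359 (SD, n = 3). All 7 that rose and Hist1h2an, which fell, lie in Hist1, and the other 5 that fell lie in Hist2 and Hist3. The most abundant, Hist2h2aa1 and Hist2h2aa2, share reads and were at 254.5, 263.5 and 256.1 CPM and at 252, 261.9 and 254.8 CPM in LFD against 207.2, 231.9 and 218.5 CPM and 205.9, 229 and 215.9 CPM in HFD. All HFD libraries of both were lower, with log2 fold changes of -0.24 for each (adjusted p = 2.75e-05 and 1.84e-05, edgeR). With the offset both were at 0.09 and not called (adjusted p = 0.085 and 0.0939, edgeR). Hist2h2ab was at 28.0, 28.3 and 29.6 CPM in LFD, 15.0, 17.0 and 11.6 CPM in HFD and 17.7, 21.2 and 16.5 CPM in HFD + EC359. It fell by 0.97 on the log2 scale with the diet (SE 0.122, adjusted p = 5.16e-08, edgeR) and was 0.34 higher with EC359 (adjusted p = 0.0376, edgeR), a call that was lost without HFD replicate 1 or 3 (0.20 without replicate 3) or HFD + EC359 replicate 1 or 2. Hist3h2a was at 135, 121.7 and 105.4 CPM in LFD and 94.8, 93.3 and 84.4 CPM in HFD, and fell by 0.40 on the log2 scale (adjusted p = 3.88e-06, edgeR).

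Several H2A values moved between libraries of the same group. Hist1h2ac, the H2A gene with the largest rise, was at 55.6, 7.22 and 5.99 CPM in LFD and 109.2, 40.1 and 52.3 CPM in HFD. LFD replicate 1 lay above HFD replicates 2 and 3, so the groups overlapped although the log2 fold change was 1.68 (SE 0.356, adjusted p = 0.000189, edgeR). It was 3.35 without LFD replicate 1, and leaving out any other library gave 1.12 to 1.94. DESeq2 did not call the gene (1.55, adjusted p = 0.141). Hist1h2ae was at 80.2, 27 and 26.8 CPM in LFD and 129.5, 62.1 and 76.6 CPM in HFD, again with LFD replicate 1 among the HFD values. Hist1h2an was at 74.7, 74.1 and 65.6 CPM in LFD, 28.6, 67.3 and 38.2 CPM in HFD and 32.8, 41.5 and 18.4 CPM in HFD + EC359. The groups overlapped through HFD replicate 2. Its log2 fold changes were -0.68 with the diet (adjusted p = 0.00223, edgeR), and -0.55 with EC359 (adjusted p = 0.0323, edgeR). The diet value was -0.43 without HFD replicate 1, where the call was lost, and -1.10 without HFD replicate 2. The EC359 value was -0.12 without HFD replicate 2, -0.27 without HFD + EC359 replicate 3 and -0.83 without HFD + EC359 replicate 2, and its call was lost in the first 2 cases and without HFD + EC359 replicate 1. Neither call held with the offset (-0.34 and -0.35, adjusted p = 0.0846 and 0.136, edgeR). Each of these 3 genes held fractional counts in 7 to 9 libraries, and the part of the copy assignment in these swings was not tested. In the comparison of HFD + EC359 with HFD, 6 of 17 H2A genes fell and 1 (Hist2h2ab) rose, beside 13.8% and 12.7% of all genes. With DESeq2, 3 fell and 0 rose, and with the offset 1 fell and 2 rose, beside 12.7% and 12.8% of all genes.

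The models of 11 H2A and 11 H2B genes lie head to head less than 1000 bases apart, 172 to 334 bases from each other, and in 9 of these couples both genes were tested. Within a library the ratio of H2B to H2A needs no scaling between libraries. In 5 couples, each in Hist1, this ratio was higher in every HFD library than in every LFD library. The share of other gene pairs with such a separation was not determined. Among single genes, 28.5% of all tested genes had every HFD library above every LFD library. All tested H2B genes of Hist1 were called higher, so these ratios are not separate from that result. For Hist1h2bn to Hist1h2ak the ratio was 0.0639, 0.0952 and 0.0614 in LFD and 0.18, 0.249 and 0.205 in HFD. It was 0.279, 0.202 and 0.359 in HFD + EC359. Hist1h2ak had a log2 fold change of 0.14 with the diet and no 150-base stretch in common with another member, though its counts held a fraction in 3 libraries. With the offset it was called higher (0.48, adjusted p = 1.85e-06, edgeR), where Hist1h2bn was at 1.95. For Hist1h2bk to Hist1h2ah the ratio was 0.398, 0.462 and 0.406 in LFD and 1.07, 0.839 and 0.866 in HFD, and for Hist1h2bf to Hist1h2ad 1.12, 1.26 and 1.39 against 2.45, 3.67 and 3.00. The couples Hist1h2ai with Hist1h2bl and Hist1h2an with Hist1h2bp had the same separation. The 4 other couples overlapped between the groups, among them Hist1h2ac with Hist1h2bc, whose mean ratio was 2.18 in LFD and 0.658 in HFD, and the Hist2 couple Hist2h2ac with Hist2h2be.

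**Figure D3:**
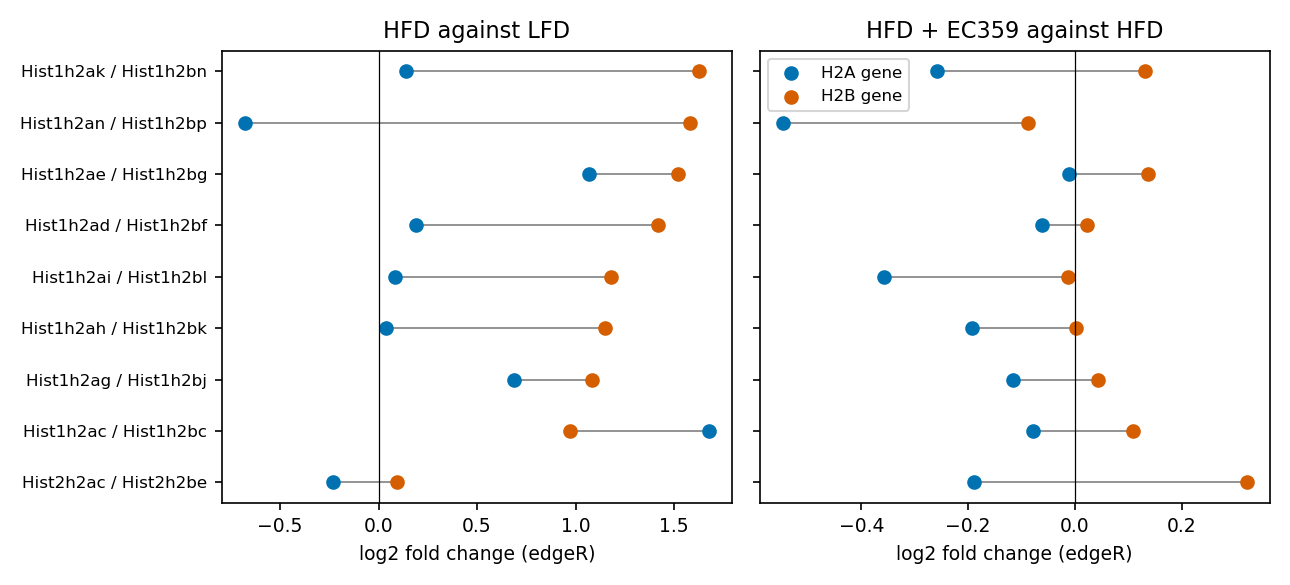
Log2 fold change from edgeR of the H2A gene (blue) and the H2B gene (orange) in the 9 head-to-head couples in which both were tested, with the diet comparison (HFD against LFD) on the left and the EC359 comparison (HFD + EC359 against HFD) on the right. On the left the H2B gene lies above its H2A partner in 8 couples and below it for Hist1h2ac with Hist1h2bc.

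H1 genes, which encode the linker histones, had few fractional counts and few shared stretches. Of 5 tested, 3 fell and 1 rose in HFD, beside 25.8% and 26% of all genes. With the offset 2 fell and 2 rose, beside 20.9% and 21.6% of all genes. Hist1h1c, the most abundant member of all, was at 662.6, 621.3 and 607.1 CPM in LFD, 489.5, 487.7 and 477 CPM in HFD and 472.1, 467.6 and 450.7 CPM in HFD + EC359. All HFD libraries were lower, by 0.38 on the log2 scale (SE 0.036, adjusted p = 1.79e-10, edgeR), and the difference between HFD + EC359 and HFD was -0.07 (SE 0.0356, adjusted p = 0.187, edgeR). Hist1h1b was at 307.1, 286.5 and 297.8 CPM in LFD, 255.9, 266.6 and 258.3 CPM in HFD and 193.6, 190.7 and 191.3 CPM in HFD + EC359. It fell by 0.19 with the diet (adjusted p = 0.000159, edgeR) and by 0.44 with EC359 (SE 0.0396, adjusted p = 1.20e-10, edgeR), on the log2 scale, with no overlap of groups in either step. With the offset the diet value was 0.04 (adjusted p = 0.351, edgeR). Hist1h1d fell by 0.16 and by 0.21 on the log2 scale in the same steps. Hist1h1e was at 339.2, 374.6 and 336.6 CPM in LFD and 399.5, 394.7 and 381.5 CPM in HFD, which was higher by 0.16 on the log2 scale (adjusted p = 0.00111, edgeR), and it did not pass the test for EC359. Hist1h1a had log2 fold changes of 0.13 and -0.25 and passed neither test, and both with the offset (0.28 and -0.30, adjusted p = 0.0391 and 0.0283, edgeR).

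Of the 12 H3 genes, 4 rose and 0 fell in HFD against LFD at an adjusted p under 0.05 in edgeR, where DESeq2 called 2 and 0. Of all tested genes 26% rose and 25.8% fell. With the offset 9 H3 genes rose and 0 fell, beside 21.6% and 20.9% of all genes. Hist1h3g had all HFD libraries below all LFD libraries, at 72.5 to 86.2 against 86.4 to 90.9 CPM, without passing the test. Hist1h3e, the most abundant, was at 366.2, 360.8 and 377 CPM in LFD, 344.1, 406.2 and 377 CPM in HFD and 298.4, 288.5 and 331.3 CPM in HFD + EC359. The LFD and HFD values overlapped, and all HFD + EC359 values were lower, by 0.29 on the log2 scale (SE 0.0477, adjusted p = 1.35e-05, edgeR). Hist1h3c was at 160.2, 158.6 and 183.6 CPM in LFD and 167.6, 191.1 and 178.7 CPM in HFD, which overlapped, and at 155.8, 153 and 157.3 CPM with EC359, lower than HFD by 0.20 on the log2 scale (adjusted p = 0.00226, edgeR). In all, 6 H3 genes fell and 0 rose with EC359, beside 13.8% and 12.7% of all genes. DESeq2 called 3 lower, and 4 were lower with the offset, beside 12.7% of all genes. The 6 include Hist2h3c2-ps, with 127.83, 42.67 and 45 counts in HFD. Its log2 fold changes of 0.74 with the diet and -0.71 with EC359 were 0.06 and -0.04 without HFD replicate 1, and neither call held.

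Hist2h3c1 and Hist2h3b share 30.9% and 92% of their 150-base stretches with other members and swung most between libraries. Hist2h3c1 had 847, 70.33 and 50.67 counts in LFD, 188.33, 311.33 and 43.5 counts in HFD and 89.33, 82.83 and 719 counts in HFD + EC359. Hist2h3b had 904, 172.67 and 149 counts in LFD, 320, 500.33 and 250 counts in HFD and 357.33, 374.33 and 1016 counts in HFD + EC359. LFD replicate 1 and HFD + EC359 replicate 3 were high for both genes, and neither gene was called in any comparison. Without LFD replicate 1 the log2 fold change of Hist2h3c1 for HFD against LFD turned from -1.35 to 1.23, and that of Hist2h3b from -0.68 to 0.80.

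H4 genes gave the most regular decrease with EC359. Of 13 tested, 11 fell and 0 rose in HFD + EC359 against HFD (edgeR, adjusted p under 0.05; 11 and 0 in DESeq2), with a median log2 fold change of -0.25, and in 12 of the 13 every HFD + EC359 library was below every HFD library. Over all 63 tested members, 25 fell and 3 rose, against 13.8% and 12.7% of all tested genes, and groups did not overlap, with HFD + EC359 lower, in 20.7% of all genes. At the stricter threshold 0 members fell and 0 rose in edgeR, against 1.38% and 2.08% of all genes. The falls with EC359 were thus below 2-fold in every member.

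Hist1h4d, the most abundant H4 gene, was at 494.7, 459.7 and 496.1 CPM in LFD, 404.7, 381.7 and 408.6 CPM in HFD and 343.3, 332.5 and 331.3 CPM in HFD + EC359. The 3 groups formed separate steps, with log2 fold changes of -0.28 (SE 0.0383, adjusted p = 2.82e-07, edgeR) for the diet and -0.25 (SE 0.038, adjusted p = 5.73e-06, edgeR) for EC359. With the offset the diet step was 0.06 (adjusted p = 0.22, edgeR). Hist1h4h was at 315.2, 324.5 and 316.5 CPM, 260.8, 254.5 and 270 CPM, and 215.4, 218.7 and 217.8 CPM in the same order of groups. Its steps were -0.28 and -0.27 on the log2 scale, and with the offset the first was -0.05 and not called (adjusted p = 0.304, edgeR). Hist1h4j was at 215.2, 190.6 and 222.9 CPM in LFD and 188, 199.4 and 195.3 CPM in HFD, which overlapped, and fell to 138.5, 156.5 and 148.1 CPM in HFD + EC359, by 0.39 on the log2 scale (SE 0.0505, adjusted p = 2.39e-07, edgeR). Hist1h4m fell by 0.64 with EC359 (adjusted p = 0.000783, edgeR) from a low level of 13.4 to 20.04 CPM in HFD. Hist4h4, the gene outside the clusters, was at 192.9, 194.9 and 200.6 CPM in HFD and 175.4, 177.8 and 164.5 CPM in HFD + EC359, lower by 0.19 on the log2 scale (adjusted p = 0.0012, edgeR).

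With the diet, 6 of 13 H4 genes fell and 1 rose, beside 25.8% and 26% of all genes. With the offset the direction of these counts turned, to 1 that fell and 6 that rose, beside 20.9% and 21.6% of all genes. Hist1h4a was at 218.7, 184.8 and 203.9 CPM in LFD and 157.6, 166.4 and 157.7 CPM in HFD, all HFD libraries being lower, by 0.33 on the log2 scale (adjusted p = 1.85e-06, edgeR), and with the offset the value was 0.01 (adjusted p = 0.852, edgeR). Hist1h4n, which covers a pair of loci and shares all of its 150-base stretches with other members, was at 74.1, 80.4 and 107.3 CPM in LFD and 112.2, 108.5 and 119.7 CPM in HFD, higher by 0.37 (adjusted p = 0.000195, edgeR). Hist1h4b, with log2 fold changes of -0.10 and -0.07, and Hist1h4n, with -0.19 for EC359 (adjusted p = 0.0535, edgeR), were the H4 genes that did not pass the test for EC359.

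**Figure D4:**
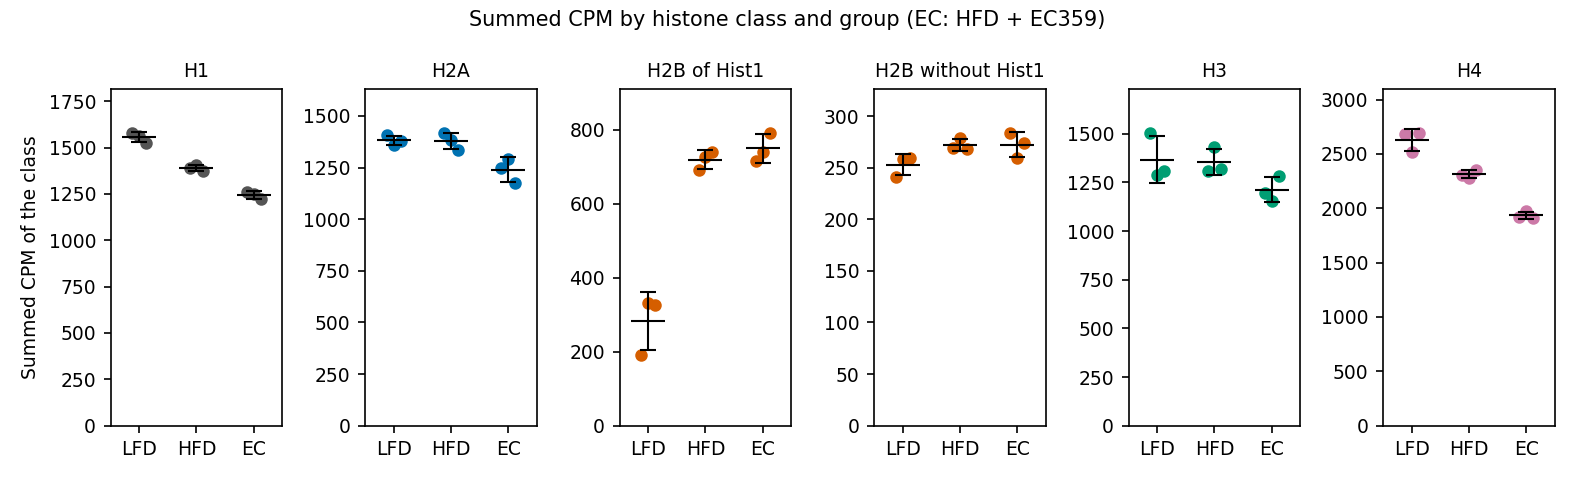
Summed CPM of the members of each class in each library (points), with the mean and SD of 3 libraries (bars), for LFD, HFD and HFD + EC359 (EC); each axis starts at 0. H2B of Hist1 is higher in both high-fat groups, and the H1 and H4 sums step down from LFD to HFD to HFD + EC359 without overlap. The sums are without the offset for GC content and gene length.

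Added over all members without the offset, the histone counts changed little with the diet while their make-up did. Both the sums and the shares keep the trend over GC content that is given below. With the offset 43 members rose and 5 fell with the diet, against 21.6% and 20.9% of all genes. The sum was 7472 ± 145.4 CPM in LFD, 7427 ± 67.6 CPM in HFD and 6652 ± 25.3 CPM in HFD + EC359 (SD, n = 3). H4 made up 2631 ± 100.3, 2313 ± 37.1 and 1934 ± 34.4 CPM, H1 1556 ± 27.2, 1390 ± 14.5 and 1244 ± 20.7 CPM and H3 1367 ± 118.7, 1355 ± 69.0 and 1212 ± 64.9 CPM in the 3 groups. The share of H2B in the members' counts was 7.19% ± 1.30 in LFD, 13.4% ± 0.318 in HFD and 15.4% ± 0.546 in HFD + EC359, and that of H4 was 35.2% ± 0.798, 31.1% ± 0.729 and 29.1% ± 0.457. In bulk tumors, fewer cells of a kind and less RNA per cell cannot be told apart.

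GC content moved with these comparisons. The libraries differed in the level of genes with few G and C bases against that of genes with many. The mean log2 level of low-GC genes less that of high-GC genes was -0.54, -0.32 and -0.36 in LFD, 0.10 to 0.16 in HFD and 0.25 to 0.30 in HFD + EC359. LFD replicate 1 lay at the end of this scale as it did for H2B. Over all tested genes with 60% to 65% GC the median log2 fold change was -0.30 with the diet and -0.13 with EC359, and for those above 65% GC it was -0.38 and -0.20. The members are GC-rich, with a median of 63.1% against 50.75% in all genes. The trend over GC content went with the groups, so a counting effect and a difference in expression cannot be told apart in it. Taking the trend out would remove either. Where the trend of each library over GC content and gene length was taken out, 43 members rose and 5 fell with the diet, in place of 27 and 15, against 21.6% and 20.9% of all genes. For EC359 against HFD, 4 rose and 17 fell, against 12.8% and 12.7% of all genes.

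The classes responded differently to this step. The H2B genes of Hist1 were called higher with the diet in 14 of 14 cases with or without it, and their median went from 1.24 to 1.56. Hist1h2bm, at 62.47% GC, went from 1.999 to 2.31, and Hist1h2be, at 45.6% GC, from 1.86 to 1.71. Hist2h2bb went from 0.10 to 0.23 and was then called (adjusted p = 1.05e-05, edgeR). The H4 gene that fell with the diet after this step is Hist4h4. With EC359, 9 of 13 H4 genes fell, in place of 11, beside 12.7% of all genes with the offset. Their median was -0.23 in place of -0.25. Hist1h1c was lower with the diet in both fits, by 0.38 and by 0.20, and Hist1h1b was lower with EC359 in both, by 0.44 and by 0.45, on the log2 scale.

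**Figure D5:**
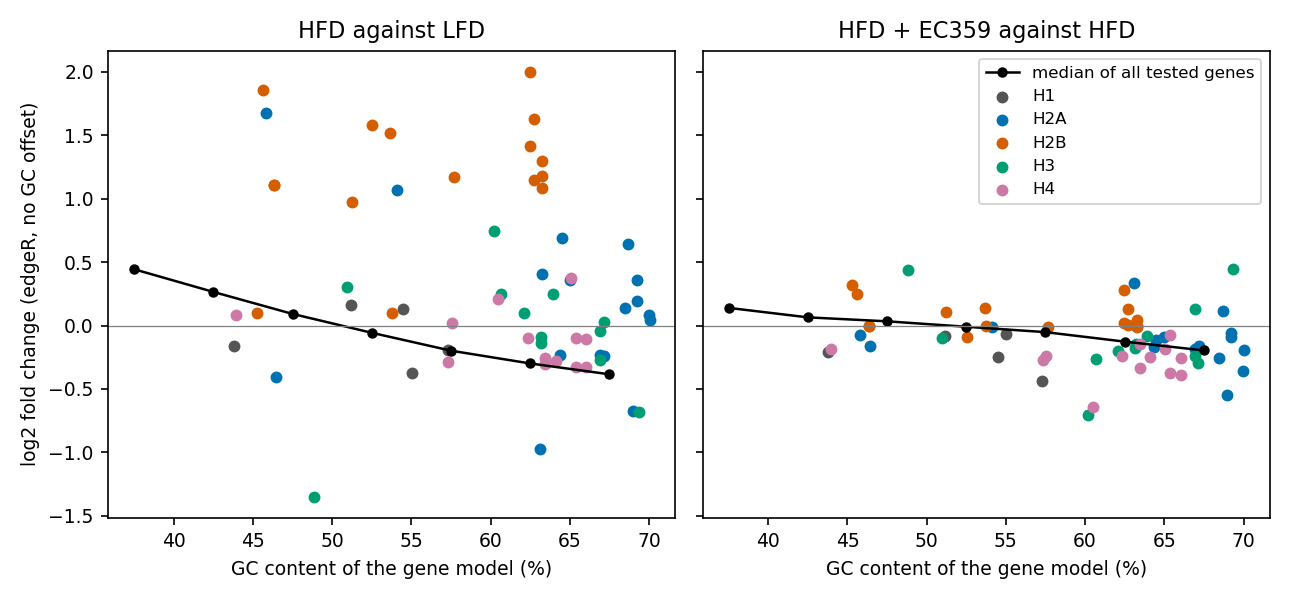
Log2 fold change from edgeR, without a GC offset, against the GC content of the gene model for the 63 tested members by class, with the median of all tested genes in bins of GC (black line; the outermost bins are drawn beside their neighbors). On the left the H2B genes of Hist1 lie above the line at every GC content, and on the right most H4 genes lie below the line.

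Replacement histones are made outside S phase as well, most of them from mRNAs with a poly(A) tail; H2afx is 1 of the 7 other genes with the stem-loop letters. Of 10 tested, 6 fell and 1 rose with the diet, beside 25.8% and 26% of all genes, and 5 fell and 1 rose with EC359, beside 13.8% and 12.7%. The counts of this list and of the lists that follow are without the offset. H3f3b, which encodes H3.3, was at 1038 ± 92.8 CPM in LFD, 830.9 ± 43.8 CPM in HFD and 726.7 ± 33.3 CPM in HFD + EC359 (SD, n = 3), with log2 fold changes of -0.32 and -0.19 (adjusted p = 3.10e-07 and 0.00113, edgeR). H1f0, the linker histone of resting cells, fell by 0.24 with the diet, and its change with EC359 was -0.02. H2afz, which encodes H2A.Z, fell by 0.51 and by 0.23 in the same steps and H2afx, the H2A variant phosphorylated at DNA breaks, by 0.26 and by 0.33. Cenpa, the H3 variant of centromeres, had a log2 fold change of -0.08 with the diet (adjusted p = 0.332, edgeR) and fell by 0.34 with EC359 (adjusted p = 9.35e-05, edgeR). H3f3a, named after its values were seen, was the gene that rose, by 0.57 and by 0.27.

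Among the 17 factors for transcription and processing of histone mRNA, 7 rose and 1 fell with the diet (26% and 25.8% of all genes), and 0 rose and 2 fell with EC359 (12.7% and 13.8% of all genes). Slbp was at 38.5 ± 3.47 CPM in LFD, 45.3 ± 1.56 CPM in HFD and 38.3 ± 1.17 CPM in HFD + EC359 (SD, n = 3). It rose by 0.23 with the diet (SE 0.0827, adjusted p = 0.0207, edgeR) and fell by 0.24 with EC359 (SE 0.0768, adjusted p = 0.0168, edgeR). Npat, the coactivator of histone transcription in S phase, rose by 0.58 with the diet (adjusted p = 4.01e-05, edgeR), and its change with EC359 was 0.17 (adjusted p = 0.175, edgeR). Pou2f1, named after its values were seen, rose by 0.36 with the diet (adjusted p = 0.00519, edgeR), with 0.07 for EC359. Upf1, which takes part in the decay of histone mRNA, was the gene that fell with the diet, by 0.14 (adjusted p = 0.00956, edgeR), and Sympk, a scaffold of the cleavage complex, passed neither test.

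S phase and replication genes are the usual companions of histone mRNA. Of 41 tested, 7 rose and 20 fell with the diet, beside 26% and 25.8% of all genes, and 0 rose and 17 fell with EC359, beside 12.7% and 13.8%, with a median of -0.15 in both. Mcm7, a subunit of the replicative helicase, fell by 0.24 with the diet (adjusted p = 8.50e-05, edgeR), and its change with EC359 was -0.07. Uhrf1, which carries DNA methylation through replication, fell by 0.18 and by 0.34. Of 21 histone chaperones, 6 rose and 6 fell with the diet and 0 rose and 8 fell with EC359, to be read against the same shares of all genes. Among those that fell with EC359 were Hjurp, the chaperone of Cenpa, by 0.18, and Ssrp1, a subunit of FACT, by 0.20. The labels name a preparation for mRNA. RNAs without a poly(A) tail other than histone mRNA were counted as well, with Rpph1 and Rmrp far above the others. Rpph1, the RNA of RNase P, was at 12050 ± 900.9 CPM in LFD, 8654 ± 440.3 CPM in HFD and 7646 ± 264.7 CPM in HFD + EC359, and Rmrp at 3815 ± 324.2, 4832 ± 296.1 and 5783 ± 19.7 CPM. Of 120 listed RNAs of this kind 89 were tested, most of them at a few CPM, where fewer changes can be called. Of the 89, 9 rose and 13 fell with the diet (26% and 25.8% of all genes) and 3 rose and 5 fell with EC359 (12.7% and 13.8% of all genes). The part of poly(A) selection in the histone values was not tested.

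Markers of other cells moved between the groups as well. With the diet, 8 of 8 fibroblast and 8 of 8 endothelial markers rose and 6 of 6 tested epithelial markers fell, beside 26% and 25.8% of all genes. The summed level of the fibroblast list was 7816 to 9272 CPM in LFD, 13570 to 14320 CPM in HFD and 4015 to 4120 CPM in HFD + EC359, and that of the epithelial list 2057 to 2224, 774.9 to 787.6 and 1144 to 1171 CPM. With EC359, 5 of 8 fibroblast markers fell and 1 rose, beside 13.8% and 12.7% of all genes. Col1a1, Col1a2 and Col3a1, the most abundant, fell by 2.09, 2.06 and 1.98 on the log2 scale. Pdgfra rose by 0.34, and Pdgfrb (-0.02) and Dcn (-0.12) did not pass the test. The endothelial list summed to 244.6 to 249.7, 422.8 to 455.7 and 338 to 354.9 CPM. The macrophage list summed to 1763 to 1814, 1976 to 2013 and 2538 to 2554 CPM, with 8 of 8 markers higher with EC359, beside 12.7% of all genes. No marker of these 4 lists was at 0 in all libraries. The adipocyte list, of which 5 of 8 markers were tested, summed to 11.25 to 14.6, 28.56 to 31.65 and 28.51 to 32.61 CPM. The endothelial, macrophage and adipocyte sums were thus higher in both high-fat groups than in LFD, as was the sum of the H2B genes of Hist1. The neutrophil and erythroid sums were higher in both as well. Single markers differed. With the diet 5 of 8 macrophage markers rose and 1 fell, beside 26% and 25.8% of all genes. Lyz2 rose by 0.84 on the log2 scale, from 326.4 to 582.8 CPM, and Mrc1 fell by 0.36, from 567.3 to 443.4 CPM. Of the 5 tested adipocyte markers 2 rose, Fabp4 by 1.66 and Cfd by 1.16, and 0 fell. Pparg, Plin1 and Cidec were not called with the diet, and Adipoq, Retn and Lep were too low to be tested. Fabp4 alone was at 6.21, 19.98 and 19.43 CPM in the 3 groups. It thus made up most of the adipocyte sum in both high-fat groups. The part of the cell make-up in the histone values was not tested.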

How the data were processed

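RNA-seq counts of 9 libraries (LFD, HFD and HFD + EC359, 3 each) were analyzed. The authors deposited expected counts for each gene without normalization. These came from featureCounts 1.5.0-p1 with mm9 gene models in reverse-stranded mode, and a read pair that fitted more than 1 gene or position was divided into fractions. The submitters' processing notes name HISAT2 2.1.0 and bcl2fastq, and the study's methods name TopHat2 and HTSeq. The share of genes with a fractional value differed between the groups. It was 1.19% to 1.58% in the LFD, 2.46% to 2.64% in the HFD and 2.58% to 3.55% in the HFD + EC359 libraries. The part of this difference in the histone values was not tested. Counts were rounded for the tests.

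In R 4.3.3, edgeR 4.0.16 (filterByExpr, TMM factors, quasi-likelihood test with 3 groups in 1 model, Benjamini-Hochberg adjustment) tested 13366 of 22609 genes. DESeq2 1.42.0, RLE factors, library totals, other filters, 6 libraries alone, a replicate block, an offset for GC content and length, counts cut down to whole numbers, thinning, the study's threshold and each library left out were alternatives. The steps were tested on simulated data. GC content came from the NCBIM37 (mm9) sequence for 22549 genes, and promoters from RefSeq (GRCm38.p6). No table of protein sequences was used here.

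The members and lists were chosen with earlier results of these data known. Named members are the 2 most abundant of each class, the 5 with the largest called change in each direction for the diet and for EC359, and the highest and lowest of each class (28 in all). Named genes of other lists are the 2 most abundant, with Slbp, Npat, H2afx, H2afz and Cenpa. Others were named for couples, counts of 5 or fewer or overlaps. Replicates differed by more than sampling noise (mean chi-square per gene 1.36 to 3.10). Libraries with the same number did not deviate together (r of -0.03 to 0.02). Lists of neutrophil, T and NK cell, B cell, adipocyte, epidermis and erythroid markers were also counted: with the diet, 2, 0, 1, 2, 0 and 5 of 4, 4, 1, 5, 8 and 6 tested genes rose and 0, 1, 0, 0, 6 and 0 fell. Of all tested genes, 26% rose and 25.8% fell with the diet.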

Additional observations from a re-analysis of the deposited data

How the results depend on the processing

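The counts of members called kept within 1.5 times their values under RLE factors, library totals, at least 10 counts in every library, the 6 libraries of a comparison alone, cutting down of fractions, thinning and the replicate block, apart from those given here. For HFD against LFD, 27 rose and 15 fell; with the GC and length offset these were 43 and 5, with the offset and the replicate block 43 and 6, and at the stricter threshold (more than 2-fold, adjusted p below 0.01) 15 and 0. For HFD + EC359 against HFD, 3 rose and 25 fell; 1 rose with DESeq2, 5 without a filter, 0 to 4 with a library left out, and with the stricter threshold 0 rose and 0 fell. For HFD + EC359 against LFD, 22 rose and 23 fell; these were 34 and 9 with the offset, 35 and 9 with the offset and the block, and 1 fell with the stricter threshold. The numbers of the libraries carry no shared animal or day in the labels. With the replicate block, 27 rose and 15 fell in the first comparison, 3 and 28 in the second and 22 and 24 in the third. The 14 H2B genes of Hist1 were called for the diet in every alternative but the stricter threshold, which 13 of them passed.

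Directions of single members turned mostly in the fits with the GC and length offset, and the causes were not tested. Some of these members had been called without the offset and others had not. Hist1h4d and Hist1h1b, which share no stretch with another member, were called lower for HFD against LFD, at -0.28 and -0.19. Hist1h4a, Hist2h2aa1 and Hist2h2aa2 were called lower too, at -0.33, -0.24 and -0.24. Against LFD, Hist1h3e in HFD + EC359 was at -0.26 without the offset (adjusted p = 2.39e-05, edgeR). With the offset it was called higher (adjusted p = 0.000288, edgeR). With the offset, and with the offset and the block, the log2 fold change for HFD against LFD was 0.0942 and 0.0963 for Hist2h2aa1, 0.0944 and 0.0967 for Hist2h2aa2, 0.0558 and 0.0552 for Hist1h4d, 0.0116 and 0.0119 for Hist1h4a, -0.0611 and -0.0813 for Hist2h2be, 0.0445 and 0.0444 for Hist1h1b, 0.2338 and 0.2363 for Hist1h4j and 0.2368 and 0.2448 for Hist1h4b. With EC359 against HFD it was 0.0833 and 0.065 for Hist1h2bl and 0.072 and 0.0684 for Hist1h4b. With EC359 against LFD it was 0.0532 and 0.0552 for Hist2h2aa1, 0.0928 and 0.0944 for Hist2h2aa2, 0.242 and 0.2402 for Hist1h3e, 0.2731 and 0.2744 for Hist1h3c, 0.3385 and 0.4109 for Hist2h3b and 0.3088 and 0.3132 for Hist1h4b. Against HFD, Hist2h2bb was at 0.0296 with library totals and 0.0004 with at least 10 counts in every library, Hist1h2bl at 0.0194 with library totals, and Hist1h2ac at 0.0496 with the replicate block and 0.015 with the block and the offset.

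With each library left out in turn, values for HFD against LFD ran from -0.0294 to 0.088 for Hist1h3e, -0.22 to 0.26 for Hist2h2be, -1.9982 to 1.23 for Hist2h3c1, -0.0010 to 0.31 for Hist1h4m, -1.13 to 0.80 for Hist2h3b and -0.1973 to 0.0279 for Hist1h4b. For EC359 against HFD they ran from -0.0327 to 0.0323 for Hist2h2bb, -0.0999 to 0.1014 for Hist1h2bl, -0.34 to 0.47 for Hist1h2ac, -0.0056 to 0.23 for Hist1h2bn, -1.24 to 1.08 for Hist2h3c1 and -0.13 to 0.77 for Hist2h3b. Against LFD the HFD + EC359 values ran from -0.11 to 0.16 for Hist2h3c2-ps, -2.60 to 1.67 for Hist2h3c1 and -0.825 to 1.25 for Hist2h3b. Over the 28 named members, 3 comparisons and these alternatives, 1481 values kept their direction and side of the threshold, 71 passed it, 69 lost it and 56 turned. Single values were not tested for outliers, since each group has 3 libraries, and this number limits the precision of each value.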
